A study of Mus musculus and Homo sapiens with 8 samples.

Results

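The keratin genes are described here across crypt libraries of the mouse small intestine. The members are the protein-coding genes of the deposited expression table whose symbol is Krt followed by digits, each counted once. There were 9 of them among 13359 distinct genes, 6 of type I (Krt12, Krt14, Krt18, Krt19, Krt20 and Krt23) and 3 of type II (Krt7, Krt8 and Krt78).

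Keratins are the intermediate filament proteins of epithelial cells. A filament is built from pairs of an acidic type I chain and a basic type II chain, so that neither type polymerises alone. The simple epithelium of the gut is known for Krt8 as its main type II keratin, with Krt18, Krt19 and Krt20 as type I partners. The filaments are anchored at desmosomes and give the cell layer its resistance to mechanical stress.

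The study measured RNA from crypts of untreated 2-month-old C57BL/6 mice. The animals of the knockout label carried Apc Min, a truncating mutation of the Wnt regulator Apc that leads to intestinal adenomas, together with a deletion of Zmynd8, a chromatin protein gene, in the intestinal epithelium. Their controls carried Apc Min alone, so both groups had the mutation. Each group has 2 libraries, and each library pools RNA from 3 mice, as the series' design text states. The driver of the deletion and the litters of origin are not given in the labels. A p-value here sets the group difference against the spread between pools of a group, estimated with help from all genes tested. It does not measure the spread between single mice. Zmynd8 stood at 7.30 and 7.65 FPKM in libraries labelled knockout, against 6.94 and 4.73 FPKM in the Apc Min libraries (log2 fold change 0.33, 95% interval -0.13 to 0.79, limma adjusted p = 0.293). The targeted gene was thus not lower where it was labelled as deleted. Its value covers the gene as a whole, not the deleted exons, so that which libraries lack Zmynd8 is known from their labels only. FPKM is the number of reads per length of the gene and per total of the library, so levels can be compared between genes. The library totals, recovered from the values themselves, were 46551218 and 47990019 reads in the libraries labelled knockout. They were 44718091 and 48778712 reads in the Apc Min libraries.

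The members lie in the known keratin clusters, and their positions are given as the deposited table lists them (mouse build mm10, per the submitters' processing notes). On chromosome 11 the type I genes run in the order Krt12 (99415664 to 99422593), Krt20 (99428385 to 99438153), Krt23 (99477973 to 99493110), Krt19 (100140810 to 100145926) and Krt14 (100203162 to 100207510), all on the minus strand. On chromosome 15 lie Krt7 (101412403 to 101427806, plus strand), Krt78 (101946001 to 101996624, minus strand), Krt8 (101996711 to 102004342, minus strand) and Krt18 (102028216 to 102032026, plus strand), the last being a type I gene beside type II genes. Krt8 and Krt18, classical partners, are 23873 bases apart and point away from each other. No listed gene overlapped a keratin on either strand. The end of Krt8 and the start of the Krt78 span are separated by 86 bases on the same strand. A keratin 8 pseudogene, Krt8-ps, is listed on chromosome 7 with 6.37 and 6.09 FPKM in the libraries labelled knockout and 8.55 and 8.68 FPKM in the Apc Min libraries. Whether reads were shared between Krt8 and this copy was not tested.

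RefSeq promoters (GRCm38.p6), each from 250 bases before to 50 after a gene's start, were found for 8 of the 9 members, all but Krt19. Those of the 4 most abundant of these genes are shown because they carry most of the keratin RNA in these crypts. They run 5′ to 3′ on the gene's own strand. Capitals mark matches, on either strand, to the motifs TATAAA for the TATA box, GGAATG for the core bound by TEAD factors, the DNA-binding partners of YAP, CTTTGA for TCF/LEF, the Wnt effectors, TGANTCA for AP-1 and GGGCGG for the GC box.
Krt8, chr15:102004293-102004592, minus strand: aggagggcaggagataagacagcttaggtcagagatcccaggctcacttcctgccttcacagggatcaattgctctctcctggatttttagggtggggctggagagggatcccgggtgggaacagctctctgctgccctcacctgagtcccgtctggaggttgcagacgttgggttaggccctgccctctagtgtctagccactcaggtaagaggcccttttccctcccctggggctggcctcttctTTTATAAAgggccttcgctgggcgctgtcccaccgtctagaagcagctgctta
Krt20, chr11:99438104-99438403, minus strand: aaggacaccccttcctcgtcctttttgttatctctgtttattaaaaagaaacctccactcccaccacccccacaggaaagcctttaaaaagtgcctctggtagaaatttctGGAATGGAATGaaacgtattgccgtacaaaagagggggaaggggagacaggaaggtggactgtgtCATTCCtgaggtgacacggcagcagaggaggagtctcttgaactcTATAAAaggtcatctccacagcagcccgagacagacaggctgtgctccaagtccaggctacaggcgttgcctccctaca
Krt18, chr15:102027966-102028265, plus strand: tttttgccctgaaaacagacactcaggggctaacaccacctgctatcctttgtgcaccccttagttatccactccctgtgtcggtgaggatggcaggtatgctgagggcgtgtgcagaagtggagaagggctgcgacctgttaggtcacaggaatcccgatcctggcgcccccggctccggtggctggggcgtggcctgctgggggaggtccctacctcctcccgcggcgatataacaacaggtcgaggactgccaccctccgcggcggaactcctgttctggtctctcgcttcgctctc
Krt7, chr15:101412153-101412452, plus strand: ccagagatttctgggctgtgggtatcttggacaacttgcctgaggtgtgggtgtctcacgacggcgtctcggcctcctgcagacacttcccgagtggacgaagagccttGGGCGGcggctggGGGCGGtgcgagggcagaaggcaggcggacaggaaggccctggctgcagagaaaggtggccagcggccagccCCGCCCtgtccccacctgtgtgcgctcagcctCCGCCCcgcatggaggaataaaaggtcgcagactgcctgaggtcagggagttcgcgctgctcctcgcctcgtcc
The Krt20 promoter held 3 matches to GGAATG, 2 of them overlapping by a base, and a TATA box whose first base lay 29 bases before the start. Of 32851 promoters of 300 bases, 14.7% held GGAATG and 0.131% held it 3 times or more. The Krt8 window held TATAAA on both strands at the start itself, in overlapping letters, and 13.6% of all promoters held that motif. Krt7 held 4 matches to GGGCGG, which 35.7% of all promoters held at least once and 10.7% held 3 times or more, and Krt18 held no match to the 5 motifs. CTTTGA and TGANTCA, held by 16% and 7.81% of all promoters, were not matched in any of the 8 keratin promoters. Among the keratins not shown, Krt14 and Krt78 each held 1 match to GGAATG, Krt12 held 1 TATA box and Krt23 held none of the motifs. The windows of Krt12, Krt14 and Krt78 lie wholly inside the gene spans of the deposited table, so their matches are not ahead of the listed starts. A match is a run of letters and was not tested as a binding site.

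Keratins were among the most abundant RNAs of these crypts. Krt8 ranked 15 and 18 among all listed genes in the libraries labelled knockout and 13 and 15 in the Apc Min libraries. Krt20, a keratin of differentiated intestinal cells, ranked 32 and 30 in the libraries labelled knockout and 35 and 27 in the Apc Min libraries. All 9 members together made up 1.02% and 0.949% of the summed FPKM of the table in the libraries labelled knockout, against 1.21% and 1.27% in the Apc Min libraries. In the libraries labelled knockout the order was Krt8, Krt20, Krt19, Krt18, Krt7, Krt23, Krt78, Krt12 and Krt14, and only the ranges of Krt78 and Krt12 overlapped between neighbours. In the Apc Min libraries the order was Krt8, Krt20, Krt19, Krt18, Krt7, Krt23, Krt14, Krt12 and Krt78. There the ranges of Krt20 and Krt19 overlapped, as did those of Krt14 and Krt12. Krt12, Krt14 and Krt78 stayed under 3 FPKM in every library.

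**Figure D1:**
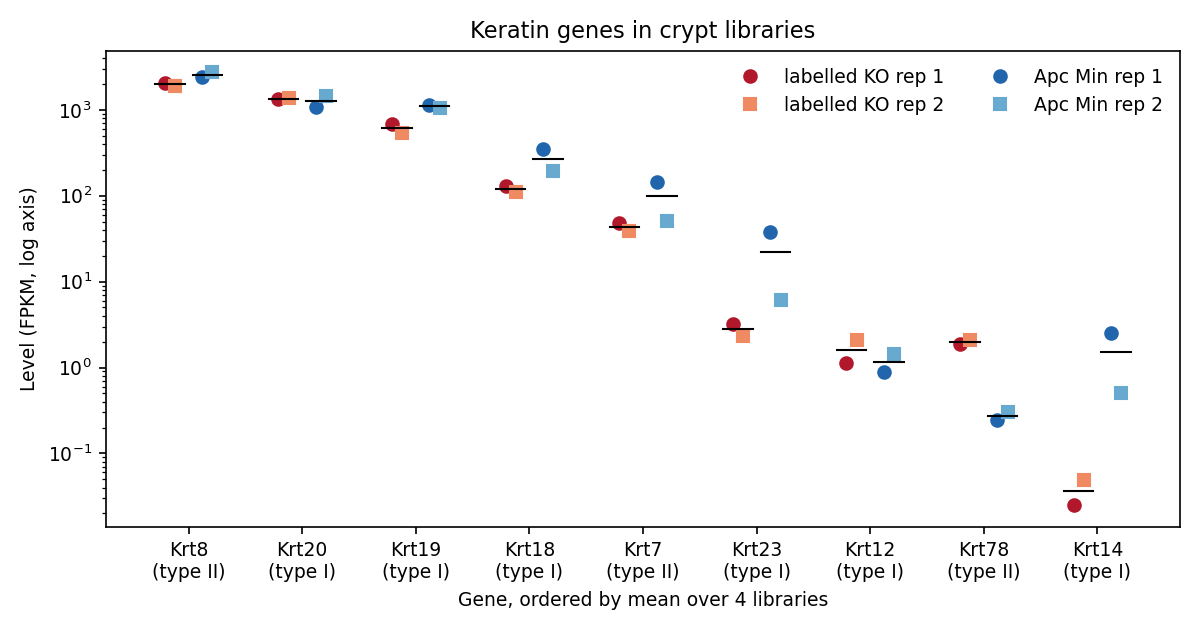
Level of each keratin (FPKM, log axis) in the 2 libraries labelled knockout (red) and the 2 Apc Min libraries (blue), with bars at the group means. Krt18, Krt7, Krt23 and Krt14 are highest in Apc Min replicate 1, while Krt78 is higher in both libraries labelled knockout.

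Summed over the family, type I and type II keratin RNA were nearly equal in every library, although the parts that single members took of type I differed. Type I members summed to 2146 and 2029 FPKM in the libraries labelled knockout and to 2608 and 2694 FPKM in the Apc Min libraries. Type II members summed to 2126 and 1955 FPKM in the libraries labelled knockout and to 2523 and 2778 FPKM in the Apc Min libraries. Type I thus gave 50.2% and 50.9% of the keratin sum in the libraries labelled knockout and 50.8% and 49.2% in the Apc Min libraries. The difference between group means was 0.55 percentage points, smaller than the spread between the Apc Min libraries (SD 1.13 points), though it was -4.68 points after quantile normalization, which gives all libraries 1 distribution of values. This equality holds for RNA per length and says nothing of protein.

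Within type I, Krt20 gave 61.4% and 68.0% of the sum in the libraries labelled knockout, against 41.2% and 53.4% in the Apc Min libraries. Krt19 gave 32.3% and 26.4% in the libraries labelled knockout and 43.9% and 39.2% in the Apc Min libraries. Krt18 gave 6.08% and 5.46% in the libraries labelled knockout and 13.3% and 7.14% in the Apc Min libraries. For all 3 genes the groups did not overlap. The ratio of Krt20 to Krt19 was 1.90 and 2.58 in the libraries labelled knockout, against 0.937 and 1.36 in the Apc Min libraries. Type II was almost wholly Krt8, which gave 97.6% and 97.9% of it in the libraries labelled knockout and 94.2% and 98.1% in the Apc Min libraries. These shares are descriptions: with 2 libraries against 2, an exact permutation test of a single value cannot pass 0.05. The sum over all members was 4272 and 3984 FPKM in the libraries labelled knockout and 5132 and 5472 FPKM in the Apc Min libraries. After median-ratio scaling, which sets the typical gene equal between libraries, these sums were 4441 and 4335 in the libraries labelled knockout and 4665 and 5338 in the Apc Min libraries, so the groups still did not overlap.

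**Figure D2:**
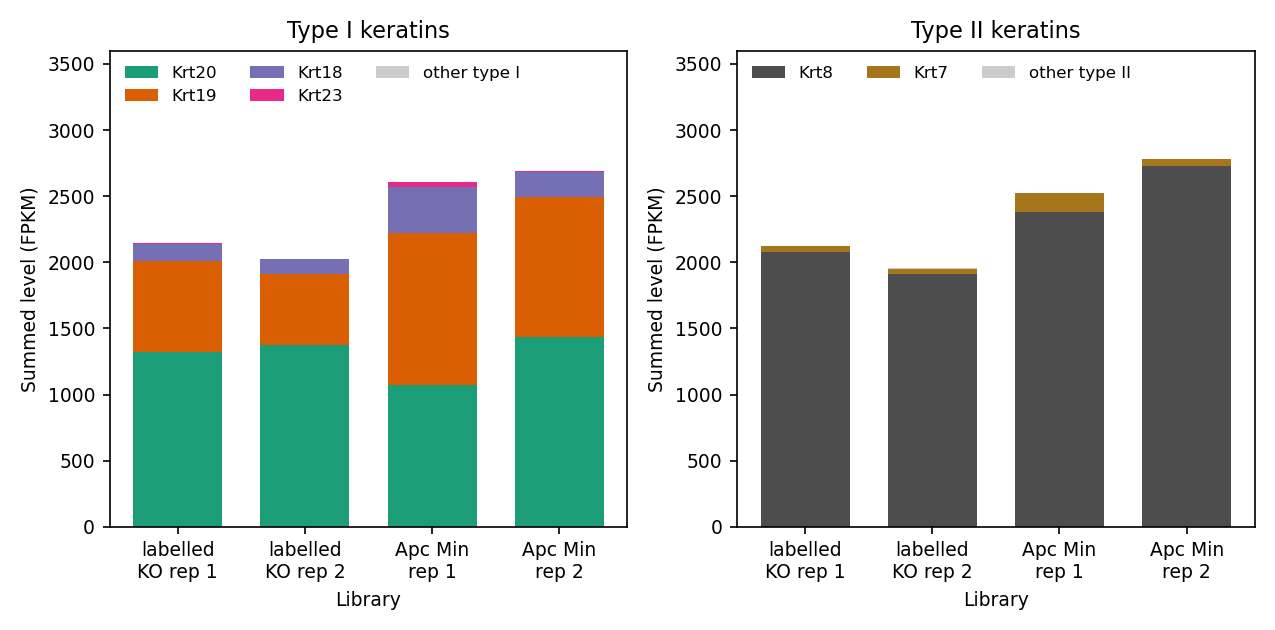
Summed FPKM of type I (left) and type II (right) keratins in each library, stacked by gene, with the libraries labelled knockout left of the Apc Min libraries. Both types reach similar heights within each library (type I is 49.2% to 50.9% of the keratin sum), and the Krt20 part of type I is larger in the libraries labelled knockout.

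Of the 9 members, 8 had at least 1 FPKM in at least 2 libraries and were tested with limma on log2(FPKM + 1), the source of every fold change, SE and adjusted p below unless said otherwise. The test called Krt78 higher in the libraries labelled knockout, and called no keratin lower. Krt78 passed the filter on low values only through the libraries in which it was high, and 6 of 9 alternatives ended its call. Over all 12948 genes tested it called 0.595% higher and 0.131% lower. At an unadjusted p under 0.05, Krt18 and Krt19 were lower and Krt78 higher, against 19.1% of all genes lower and 7.49% higher; limma voom on recovered reads also called 0 lower. Libraries of the groups did not overlap for 5 of the 8, or 62.5%, in the lower direction (Krt7, Krt8, Krt18, Krt19 and Krt23), where 48.5% of all genes tested did the same. In the higher direction this held for 1 of the 8, Krt78, against 14.9% of all genes. After median-ratio scaling Krt7 overlapped, which left 4 of the 8 lower, against 28.0% of all genes, and Krt78 higher, against 28.1%. The median log2 fold change was -0.60 over the tested keratins and -0.15 over all genes tested; median-ratio scaling moves that of all genes by 0.15. In the authors' deposited table, q-values under 0.05 were given to 5 of the 9 members, all lower (Krt7, Krt8, Krt18, Krt19 and Krt23, from 2.31e-27 for Krt19 to 0.00600 for Krt23), and to no member that was higher. The same table gave such a value to 0.876% of its genes in the lower and 1.26% in the higher direction. How the authors' q-value was computed is not stated, and Krt78 had a q-value of 1 in the authors' deposited table.

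**Figure D3:**
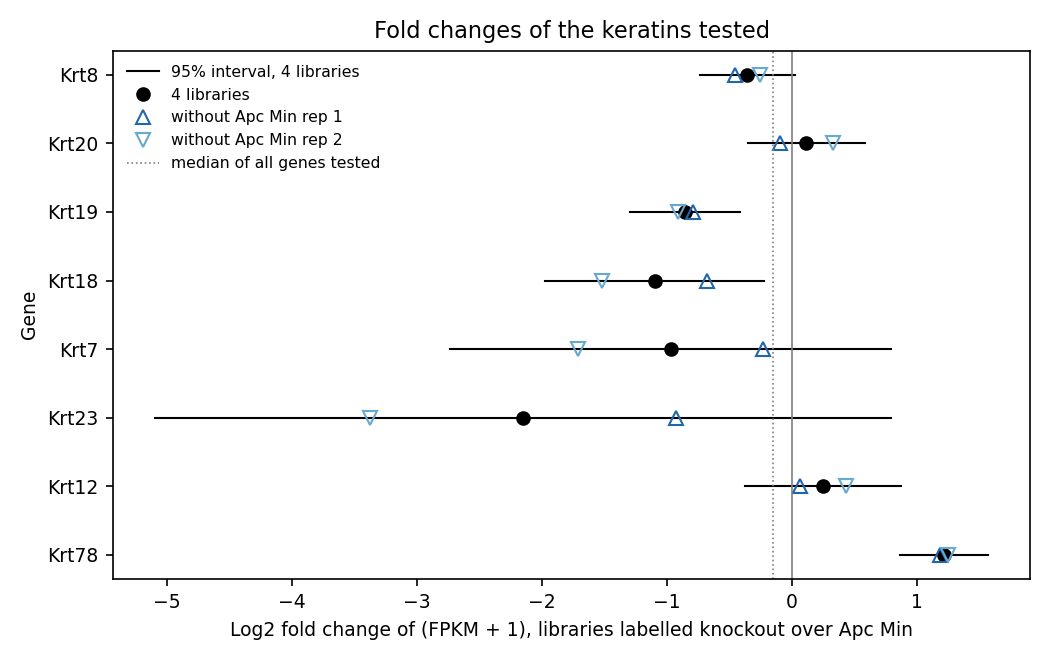
Log2 fold change of each tested keratin, libraries labelled knockout over Apc Min, with its 95% interval (black) and the values without either Apc Min library (triangles). The intervals of Krt7 and Krt23 are the widest, and their values with Apc Min replicate 1 left out lie nearer 0 (-0.23 and -0.93).

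Among type II keratins, Krt8, the obligate partner of the simple epithelial type I chains, stood at 2076 and 1914 FPKM in libraries labelled knockout and at 2378 and 2727 FPKM in the Apc Min libraries. Both libraries labelled knockout were below both Apc Min libraries. Krt8 gave a log2 fold change of -0.35 (SE 0.15, 95% interval -0.74 to 0.03, adjusted p = 0.206), or -0.20 relative to the median of all genes. Krt7, a keratin of ducts, bladder and other simple epithelia, stood at 48.2 and 39.3 FPKM in libraries labelled knockout, against 145 and 51.1 FPKM in the Apc Min libraries. Apc Min replicate 2 lay just above the libraries labelled knockout, and replicate 1 was 2.84 times replicate 2. Krt7 gave -0.97 (SE 0.59, 95% interval -2.74 to 0.80, adjusted p = 0.365) with all libraries and -0.23 without Apc Min replicate 1.

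Krt78, a type II keratin of stratified epithelia, stood at 1.87 and 2.07 FPKM in libraries labelled knockout, against 0.244 and 0.302 FPKM in the Apc Min libraries. It rested on 478 and 547 reads in the libraries labelled knockout and on 60 and 81 reads in the Apc Min libraries. The groups lay well apart, with a ratio of means of 7.22 and a log2 fold change of 1.22 (SE 0.14, adjusted p = 0.0459); adding 1 to low values understates the change. At its Apc Min level it would not have been tested. Its adjusted p ran from 0.0294 to 0.152 over the 9 alternatives that could test it, and leaving out Apc Min replicate 1 gave 0.0657. The RefSeq promoter of Krt78 (chr15:101954238-101954537) lies inside the listed span, which runs on to the end of the far more abundant Krt8. Krt8 itself was lower in the same libraries in which Krt78 was higher. Gene totals cannot show whether reads from Krt8 entered the Krt78 value, and this was not tested.

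Among type I keratins, Krt19, carried along crypt and villus, stood at 692 and 535 FPKM in libraries labelled knockout and at 1146 and 1055 FPKM in the Apc Min libraries. The groups were separate and both Apc Min libraries were alike. Krt19 gave -0.85 (SE 0.17, 95% interval -1.29 to -0.41, adjusted p = 0.0927), and it was -0.79 and -0.91 without Apc Min replicate 1 and replicate 2. Its adjusted p was the smallest among the keratins with negative values and missed the threshold. Krt18 stood at 131 and 111 FPKM in libraries labelled knockout, against 347 and 192 FPKM in the Apc Min libraries. Both Apc Min libraries were above both libraries labelled knockout, and the Apc Min libraries differed 1.80-fold between themselves. Krt18 gave -1.10 (SE 0.32, 95% interval -1.97 to -0.22, adjusted p = 0.146), and -0.67 without Apc Min replicate 1. Tuft cells are known for high Krt18, and the 5 of 6 tuft markers in the table summed to 4.95 and 3.80 FPKM in the libraries labelled knockout, against 27.2 and 13.8 FPKM in the Apc Min libraries, with all 5 lower in every pairing, as were 48.5% of all genes tested (28.0% after median-ratio scaling). Some of these tuft markers were under 1 FPKM in both libraries labelled knockout. They passed the filter only through the Apc Min libraries, so their direction was fixed by it. The part of tuft cells in the Krt18 value was not tested. The ratio of Krt8 to Krt18, its classical partner, was 15.9 and 17.3 in the libraries labelled knockout and 6.85 and 14.2 in the Apc Min libraries.

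Krt20 stood at 1319 and 1379 FPKM in libraries labelled knockout and at 1074 and 1438 FPKM in the Apc Min libraries. Both libraries labelled knockout lay within the range of the Apc Min libraries. Its log2 fold change of 0.12 (SE 0.18, 95% interval -0.35 to 0.59, adjusted p = 0.696) changed sign without Apc Min replicate 1 (-0.093) and after quantile normalization (-0.037). Of its neighbours on chromosome 11, Krt12, known as the keratin of the corneal epithelium, stood at 1.12 and 2.07 FPKM in libraries labelled knockout and at 0.887 and 1.44 FPKM in the Apc Min libraries, and the groups overlapped. Krt12 gave 0.25 (95% interval -0.38 to 0.88, adjusted p = 0.529).

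Krt23 stood at 3.24 and 2.34 FPKM in libraries labelled knockout, against 38.1 and 6.15 FPKM in the Apc Min libraries. Apc Min replicate 1 stood far above the other 3 libraries, at 6.18 times Apc Min replicate 2. Krt23 gave -2.15 (SE 0.97, 95% interval -5.10 to 0.79, adjusted p = 0.265), and -0.93 without Apc Min replicate 1. Krt14, the type I keratin of basal cells in stratified epithelia, was likewise highest in Apc Min replicate 1, with 0.0250 and 0.0485 FPKM in libraries labelled knockout and 2.51 and 0.501 FPKM in the Apc Min libraries. That is 2 and 4 reads in the libraries labelled knockout and 193 and 42 reads in the Apc Min libraries. Krt14 was not tested because it reached 1 FPKM in 1 library only.

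Apc Min replicate 1 thus held the highest value of 5 of the 9 keratins: Krt7, Krt14, Krt18, Krt19 and Krt23. For Krt14 this place was fixed in advance, because only this library brought a group mean of Krt14 to 1 FPKM. The share of all genes that were highest in this library was not counted. Median-ratio scaling divided this library by the largest factor (1.1), after which Krt19 was nearly equal in the Apc Min libraries (1042 and 1029). Markers of gastric-type and fetal-like epithelium were also highest in Apc Min replicate 1. The 7 of 10 such markers in the table summed to 64.6 and 46.9 FPKM in the libraries labelled knockout, against 555 and 67.6 FPKM in the Apc Min libraries. Clu, a gene of regenerating epithelium, stood at 19.8 and 4.81 FPKM in libraries labelled knockout and 330 and 20.8 FPKM in the Apc Min libraries. Aqp5, a water channel of gastric glands, stood at 7.76 FPKM in Apc Min replicate 1 and at 0.172 FPKM or less in each other library. Like Krt14, Aqp5 reached a group mean of 1 FPKM only through Apc Min replicate 1. Of 8 squamous or basal markers 1 was in the table, Sprr1a, a cornified envelope gene, at 2.66 and 0.765 FPKM in libraries labelled knockout and at 18.7 and 5.66 FPKM in the Apc Min libraries. The part of such cells in the keratin values was not tested. In pooled tissue RNA, fewer cells of a type and less RNA per cell cannot be told apart.

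The genes whose pattern over the 4 libraries was most like that of the 3 tested keratins with the largest fold changes were found by the distance between centred log2 values. Nearest to Krt23 were Saa3, Anxa1, S100a14 and Nkd1, at distances of 0.20 to 0.28. Anxa1, an annexin on the fetal-like marker list, stood at 7.41 and 6.03 FPKM in libraries labelled knockout and at 79.7 and 11.5 FPKM in the Apc Min libraries. Nearest to Krt18 were Smox, Hk1, Pea15a, Bok and Plb1 (0.14 to 0.19). All had their highest value in Apc Min replicate 1, as Krt18 did, which follows from their choice by distance. Nearest to Krt78 were Pax8, Cyp3a13, Slc5a1, Fmo4 and Tsc22d3 (0.069 to 0.14). Slc5a1, the sodium-glucose cotransporter gene of the brush border, stood at 1160.1 and 1332 FPKM in libraries labelled knockout and at 538 and 591 FPKM in the Apc Min libraries. With 4 values per gene many genes lie close to any pattern.

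Genes that anchor and link keratin filaments mostly had negative log2 fold changes (15 of 18), without a call. The share of all genes with a negative value was not counted, but the median of all genes was itself negative (-0.15). The 4 named here, chosen by smallest p, kept that sign under every scaling tried. The signs of the others under those scalings are not given here. Of 21 anchoring and linking genes 18 were tested, and limma called 0 in either direction (0 with voom). At an unadjusted p under 0.05, 8 were lower and 0 higher, and 14 were lower and 1 higher in every pairing of libraries. Over all genes tested, 19.1% were lower and 7.49% higher at that unadjusted p, and 48.5% were lower and 14.9% higher in every pairing. After median-ratio scaling, 28.0% of all genes were lower and 28.1% higher in every pairing. The counts of the anchoring and linking genes under that scaling are not given here. The median log2 fold change of the anchoring and linking genes was -0.30, beside -0.15 over all genes. Pkp1, a plakophilin of desmosomes, stood at 4.33 and 3.80 FPKM in libraries labelled knockout and at 9.83 and 7.88 FPKM in the Apc Min libraries (-0.95, adjusted p = 0.0705). Evpl, encoding the plakin envoplakin, stood at 9.16 and 6.61 FPKM in libraries labelled knockout and at 15.7 and 16.1 FPKM in the Apc Min libraries (-0.94, adjusted p = 0.0765). Pkp2, the plakophilin of simple epithelia, gave -0.53 (adjusted p = 0.0782), and Fam83h, which in human cells recruits casein kinase to keratin filaments, gave -0.39 (adjusted p = 0.122), or -0.22 after median-ratio scaling.

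Of 18 genes for other intermediate filament proteins, 11 were tested and limma called 0 (0 with voom, 2 lower and 1 higher at an unadjusted p under 0.05). Over all genes tested, 19.1% were lower and 7.49% higher at that unadjusted p. Lmnb1, a nuclear lamin gene that is high in dividing cells, stood at 20.5 and 18.4 FPKM in libraries labelled knockout and at 33.5 and 28.9 FPKM in the Apc Min libraries (-0.65, adjusted p = 0.0808). Bfsp1, known as a lens filament gene, gave 0.57 (adjusted p = 0.0978). Iffo2 gave -1.09 (adjusted p = 0.122) and passed the filter only through the Apc Min libraries. Vim, the filament gene of mesenchymal cells, gave -0.24 (adjusted p = 0.241), or -0.069 after median-ratio scaling. The median of the 11 tested genes was -0.24. Of 15 keratin-associated and adaptor genes, 14 were tested and limma called 0 (0 with voom, 2 lower and 0 higher at an unadjusted p under 0.05), with a median of -0.10. Krtcap3 gave -0.37 (adjusted p = 0.126), and the 14-3-3 genes Ywhae and Ywhaz, whose proteins bind phosphorylated Krt18, gave -0.30 (adjusted p = 0.168) and -0.26 (adjusted p = 0.243). Kctd17, whose product in human cells acts on the keratin-binding protein trichoplein, gave -0.27 (adjusted p = 0.243). After median-ratio scaling these values were nearer 0, at -0.20 for Krtcap3, -0.13 for Ywhae, -0.080 for Ywhaz and -0.15 for Kctd17.

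Genes of the apical cytoskeleton, which lies above the keratin-rich terminal web, had the opposite sign. All 9 had positive log2 fold changes, with a median of 0.28 beside -0.15 over all genes. The 4 named here, chosen by smallest p, were positive under each scaling tried too, which does not extend to the other members. The signs of the others under those scalings are not given here. In every pairing 7 of the 9 were higher, against 14.9% of all genes (28.1% after median-ratio scaling); limma called 0 (0 with voom, 0 at an unadjusted p under 0.05). Vil1, encoding villin, stood at 1239 and 1277 FPKM in libraries labelled knockout and at 834 and 1092 FPKM in the Apc Min libraries (0.40, adjusted p = 0.215). The microvillar linker genes Cdhr5 and Cdhr2 and the actin-bundling gene Pls1 lay closer to 0. Cdhr5 gave 0.29 (adjusted p = 0.248), Pls1 gave 0.34 (adjusted p = 0.259) and Cdhr2 gave 0.30 (adjusted p = 0.317). Without Apc Min replicate 1 these values were 0.20 for Vil1, 0.17 for Cdhr5, 0.14 for Pls1 and 0.095 for Cdhr2. Espn stood at 49.1 and 46.2 FPKM in libraries labelled knockout, below its 49.8 FPKM in Apc Min replicate 2. Eps8 stood at 83.3 and 86.5 FPKM in libraries labelled knockout, below its 88.0 FPKM in Apc Min replicate 2. The positive values of Espn and Eps8 thus rest on Apc Min replicate 1. The 12 enterocyte markers summed to 20700 and 24215 FPKM in the libraries labelled knockout and to 12777 and 14435 FPKM in the Apc Min libraries. All 12 were higher in every pairing, against 14.9% of all genes, with a median of 1.33. Of these, 3 (Slc2a2, Treh and Mme) were called higher, against 0.595% of all genes. Krt20, also a gene of differentiated cells, overlapped between the groups in the same libraries, and the 5 surface enterocyte markers had a median of -0.03 with 4 overlapping. Proliferation markers, all 6 of them lower in every pairing, against 48.5% of all genes, summed to 142 and 141 FPKM in the libraries labelled knockout and to 205 and 193 FPKM in the Apc Min libraries. All 6 crypt base stem markers were present, with 153 and 156 FPKM in sum in the libraries labelled knockout and 230 and 236 FPKM in the Apc Min libraries. The 6 Paneth markers summed to 4454 and 6336 FPKM in the libraries labelled knockout, against 7297 and 9552 FPKM in the Apc Min libraries. Their median was -1.06, 5 of the 6 were lower in every pairing, and 2 (Mmp7 and Itln1) were called lower (4 with voom). The 6 goblet markers had a median of -0.46, with 4 lower in every pairing and 0 called (0 with voom, 2 lower at an unadjusted p under 0.05). Over all genes tested, 48.5% were lower in every pairing (28.0% after median-ratio scaling). At that unadjusted p 19.1% were lower, and 0.131% were called lower. The libraries also differed in markers of position along the gut. Proximal small-intestinal markers summed to 1945 and 3215 FPKM in the libraries labelled knockout, against 772 and 483 FPKM in the Apc Min libraries. Ileal markers summed to 2375 and 161 FPKM in the libraries labelled knockout and to 1558 and 7849 FPKM in the Apc Min libraries. The part of the mix of cells or of gut position in the keratin values was not tested.

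**Figure D4:**
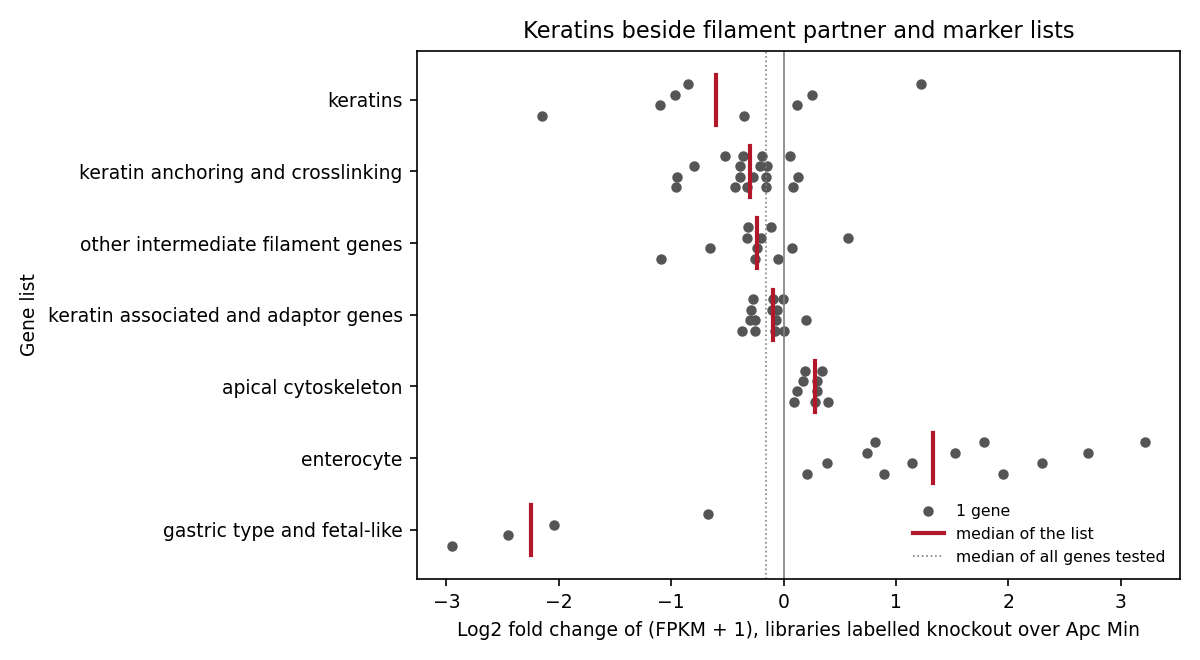
Log2 fold changes of single genes (grey points), libraries labelled knockout over Apc Min, in the keratin family, 4 filament partner lists and 2 marker lists, with list medians (red). The tested keratins spread from -2.15 to 1.22, the apical cytoskeleton genes lie above 0, and the 4 tested gastric-type and fetal-like markers lie below it.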

How the data were processed

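RNA-seq libraries of small-intestinal crypts were made with an NEBNext Ultra kit and sequenced in paired ends, per the labels' protocols. HISAT2 and mm10 are named, without roles, in the submitters' processing notes. Reads were counted with a tool, annotation and strand setting not given in the sources used here. The authors deposited 1 expression value per gene and library without a unit in the header. The deposited values were read as FPKM, because dividing out a gene length and a library total leaves whole reads for all 13359 genes. The bound was 0.002 reads, and looser for the genes with the most reads. The lengths and totals were themselves found by searching for values that leave whole reads. The recovered lengths of 7 single-exon genes equalled their spans. A recovered read number can be a fraction of the true one where all 4 share a factor. The authors' log2 fold change, p-value and q-value are columns of the deposited table. Its 168 exact repeats were dropped, and genes with a mean under 1 FPKM in both groups were not analysed here. No per-sample column went unused (0). The ChIP-seq libraries of human cells were not analysed here.

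For genes that reached 1 FPKM in 2 or more libraries, the groups were compared on log2(FPKM + 1) by limma (version 3.58.1, R version 4.3.3). Genotype was its only term, and its moderation was robust and followed a trend with the mean. Benjamini-Hochberg adjustment ran over 12948 genes, with a threshold of 0.05 and 2 residual degrees of freedom. Members and lists were chosen with earlier results of these data known. Named genes are Zmynd8, the keratins, up to 4 partner genes of smallest p per list, the ends of marker lists, and the 5 genes of at least 5 FPKM nearest in pattern to each of 3 keratins, of which 1 is not reported here. Clu, Aqp5, Anxa1, Slc2a2, Treh, Mme, Mmp7, Itln1 and Krt8-ps were named after their values were seen. Alternatives changed the pseudocount, filter, scaling, model or libraries used.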

Additional observations from a re-analysis of the deposited data

How the results depend on the processing

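Over all genes, 77 were called higher and 17 lower. The counts higher and lower were 1 and 0 without a filter, 2 and 0 at a mean of at least 5 FPKM, 41 and 9 without the trend and 123 and 27 with voom. Median-ratio scaling gave 4 lower and quantile normalization 6. Leaving out a library gave 0 to 230 higher and 0 to 386 lower; the group then keeps 1 library, assumed to vary like the others. The single keratin call, Krt78, was 0 calls with a pseudocount of 0.1, without a filter and with either other scaling, and 0 or 1 with a library left out; at a mean of 5 FPKM (0 calls), and without a library labelled knockout, it was not tested. Calls lower among keratins ran from 0 to 3 with a library left out: without Apc Min replicate 2 these were Krt7, Krt18 and Krt23. With a library left out the type I share differed by -0.25 to 1.35 points (0.55 with all), and by -4.68 after quantile normalization. Signs changed for Krt20 after quantile normalization (-0.037) and with a library left out (Krt20 -0.093 to 0.33, lowest without Apc Min replicate 1; Krt12 -0.018 to 0.52, lowest without replicate 2 of the libraries labelled knockout). The cause of these changes was not tested, apart from fewer genes or libraries entering the fit.

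With the replicate number as a block, 0 genes were called higher and 0 lower, and 0 keratins (1 without it). Same-numbered libraries deviated together with r = 0.0452 across genes. The labels do not say whether they share more than a number, and a single correlation cannot decide it.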
